A study of Mus musculus with 192 samples.

Results

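The windows described here are accessible 500 bp regions with a single summit that lay at promoters poor in CpG dinucleotides. They were chosen from the deposited list of accessible windows (mm9) by 3 criteria, none of which used a measured level. The peak call carried a single summit, the window midpoint lay within 1 kb of protein-coding transcript starts of a single strand, and the observed/expected CpG ratio of the window was below 0.4. A total of 1755 of 50000 windows met these criteria (3.51%, exact 95% interval 3.35 to 3.68), and they made up 19.0% (18.3 to 19.9) of the 9213 single-summit windows at promoters of a single strand.

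The list came from Pi-ATAC, in which fixed cells are transposed in bulk and index-sorted by protein staining, so that open chromatin is profiled per well. The cells were a mixture of 4T1, a breast cancer cell line of the mouse gated on EpCAM, an adhesion protein of epithelial cells, and splenocytes gated on CD45, a phosphatase on the surface of leukocytes. The spleen came from a single MMTV-PyMT mouse, in which the MMTV promoter drives an oncogene in mammary epithelium, and the animal had no tumour when killed. Sample titles gave 96 cells per group, and source names gave 95 and 97. No other treatment, time or genotype distinguished the groups, and an age was not given in the sources used here. The windows were read as 1 list called on pooled cells, with no score or count for a group. Values below are therefore counts over 1 list without replicates, no window could be assigned to either cell type, and no test between groups was made. Exact 95% intervals follow shares in parentheses. They cover counting error only and treat windows as independent, which neighbouring windows are not. Where a count was 0, the upper limit given is instead that of 3 counts of the total.

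Methylated cytosines in CpG dinucleotides are prone to mutation, so most of the mammalian genome is depleted of CpG, whereas CpG islands at many promoters have kept it. Promoters with a CpG island serve many housekeeping and developmental genes and are often open in many cell types. Promoters poor in CpG are more typical of tissue-restricted genes, and a TATA box, the site bound by the TATA-binding protein shortly before the start, is more frequent among them. Their activity can depend on sequence-specific activators, for example ETS, RUNX, AP-1 and IRF factors.

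The sequences below are examples of such promoters at immune genes, printed because they held words searched. For each gene the 100 bases before the transcript start are printed 5′ to 3′ on the gene strand of mm9, and capitals mark the words searched. These were the ETS word CAGGAAG, the PU.1 word GAGGAAGT, the RUNX word TGTGGTT, the CCAAT word and the C/EBP word TTGCNNAA, on either strand. Lck encodes a T cell tyrosine kinase, Was an actin regulator of blood cells, and Cd5 and Cd28 T cell surface receptors.
Lck, chr4:129250886-129250985, minus strand: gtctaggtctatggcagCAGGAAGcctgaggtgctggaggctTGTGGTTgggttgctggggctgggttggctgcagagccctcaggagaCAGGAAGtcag
Was, chrX:7667625-7667724, minus strand: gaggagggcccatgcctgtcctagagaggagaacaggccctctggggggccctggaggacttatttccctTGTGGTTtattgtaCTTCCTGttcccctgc
Cd5, chr19:10813465-10813564, minus strand: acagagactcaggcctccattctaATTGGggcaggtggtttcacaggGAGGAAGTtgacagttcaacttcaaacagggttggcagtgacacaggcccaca
Cd28, chr1:60803102-60803201, plus strand: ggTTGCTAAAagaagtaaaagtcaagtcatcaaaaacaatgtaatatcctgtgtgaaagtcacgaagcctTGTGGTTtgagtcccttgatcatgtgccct
In Lck and Was an ETS word and a RUNX word stood in the same 100 bases, in Cd5 a PU.1 word was present, and in Cd28 the RUNX word. Other immune genes held none of these words in the 100 bases before the start, among them Zap70, Spn, Ikzf1 and Gzmm.

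A further set shows promoters of genes induced by cytokines or used for antigen presentation, and genes of epithelial cells. These were again examples that held words searched. Capitals also mark the IRF word GAAANNGAAA and the AP-1 word TGANTCA. Rtp4 is an interferon-induced chaperone gene, H2-Aa encodes an MHC class II chain, Il23a a cytokine subunit, Pkp3 the desmosomal plakophilin 3, and Btn1a1 a protein of the milk fat globule. For Btn1a1 the 61 bases around the window midpoint are shown.
Rtp4, chr16:23609905-23610004, plus strand: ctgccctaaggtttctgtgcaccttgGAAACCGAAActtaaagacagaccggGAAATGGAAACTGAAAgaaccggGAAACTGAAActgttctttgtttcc
H2-Aa, chr17:34424773-34424872, minus strand: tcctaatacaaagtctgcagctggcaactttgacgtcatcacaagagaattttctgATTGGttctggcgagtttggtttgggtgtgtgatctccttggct
Il23a, chr10:127735141-127735240, minus strand: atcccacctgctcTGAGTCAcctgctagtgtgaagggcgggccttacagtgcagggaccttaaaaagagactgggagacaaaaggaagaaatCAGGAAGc
Pkp3, chr7:148264946-148265045, plus strand: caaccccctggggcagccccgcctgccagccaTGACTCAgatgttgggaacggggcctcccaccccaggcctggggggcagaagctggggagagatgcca
Btn1a1, chr13:23557925-23557985, minus strand: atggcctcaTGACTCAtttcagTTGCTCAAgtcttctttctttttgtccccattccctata
The IRF word occurred repeatedly before the start of Rtp4, and no other window lay within 10 kb of its window. In Btn1a1 the AP-1 word lay close to the window midpoint, which was itself at -185 bp from the start.

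The ratio of 0.4 did not separate distinct classes of promoter window. In the plot of CpG ratios, single-summit windows formed a broad shoulder below 0.4 and a main peak between 0.80 and 0.85, with 281 windows in the last bin below the limit and 322 in the first bin above it. Just inside the limit, at 0.40 after rounding, were the windows of Ap1s3, Qars and Sumf2. Just outside it were those of Apobec3 and Zfp595, also at 0.40 after rounding, and of Casp8 (0.401). The 1755 windows had a median ratio of 0.251 (quartiles 0.173 to 0.321) and a median of 8 CpG dinucleotides, and 7 windows had none. The lowest ratios above 0 were those of Rasd2 (0.026), 3110079O15Rik (0.029), Defb10 (0.029), Dab2ip (0.030) and Efcab4a (0.031). The median GC content was 51.4%, against 62.0% in the 7458 CpG-rich single-summit promoter windows and 48.4% in the 25812 CpG-poor single-summit windows with no transcript start of any kind within 1 kb, called distal windows below. CpG-poor windows were less frequent among the 4675 multi-summit windows at promoters of a single strand (534, 11.4%, 10.5 to 12.4).

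**Figure D1:**
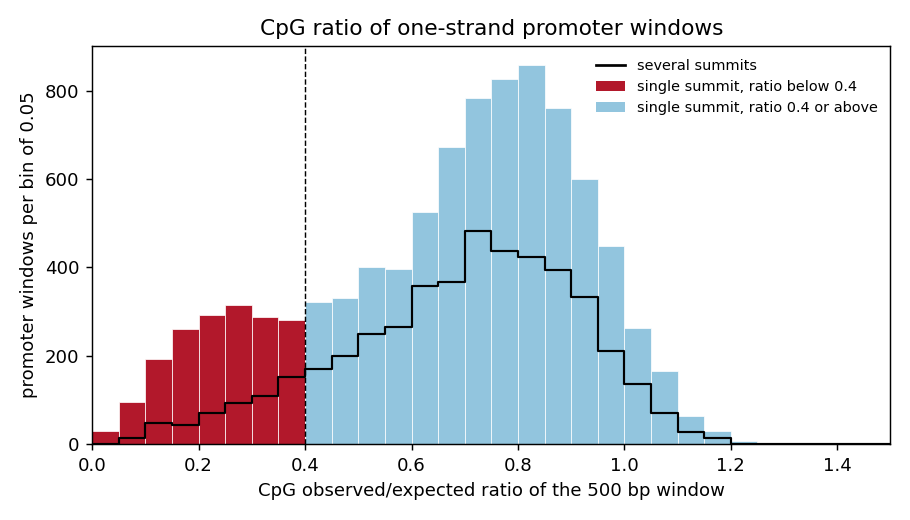
CpG observed/expected ratio (x axis, bins of 0.05) of windows at promoters of a single strand (y axis, number of windows). Bars are single-summit windows, red below 0.4 and blue at 0.4 or above, the black line is windows of peak calls with several summits, and the dashed line marks 0.4. The 1755 red windows form a shoulder without a gap at the limit.

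The windows fell into 2 sets by the sequence at the nearest start. In 986 (56.2%, 53.8 to 58.5) the 500 bp centred on the nearest start also had a ratio below 0.4, and these are called windows at CpG-poor starts. In the other 769 (43.8%, 41.5 to 46.2) the start itself had a ratio of 0.4 or above, and the CpG-poor window lay beside it. This division was made after the positions had been seen. Cd28 is an example of the first set, with its window at chr1:60802952-60803451 centred 0 bp from a start of ratio 0.148. Psmc3, which encodes an ATPase of the proteasome, is an example of the second, with its window at chr2:90892990-90893489 centred at -926 bp, upstream of a start of ratio 0.869. The 61 bases around the midpoint of the Psmc3 window, printed to show sequence outside the CpG-rich start, held none of the words listed so far and no CpG. The whole window did hold an AP-1 word, a RUNX word and 3 CpG.
Psmc3, chr2:90893210-90893270, plus strand: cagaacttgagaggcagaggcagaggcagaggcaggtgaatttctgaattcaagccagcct

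Windows at CpG-poor starts were more often close to the start than those beside CpG-rich starts. The division fixes part of this, since a window centred near a CpG-rich start shares much of its sequence. The midpoint was within 100 bp of the start in 269 windows at CpG-poor starts (27.3%, 24.5 to 30.2), in 16 beside CpG-rich starts (2.08%, 1.19 to 3.36) and in 42.9% (41.7 to 44.0) of CpG-rich windows. It was more than 500 bp away in 31.6% (28.7 to 34.6), 74.8% (71.5 to 77.8) and 16.2% (15.4 to 17.1), respectively. The median distance of all 1755 windows was 5 bp (quartiles -453 to 547, negative upstream). Upstream midpoints made up 49.5% (47.1 to 51.8), against 55.2% (54.1 to 56.4) in CpG-rich windows, and the intervals did not overlap. Genes were named for a midpoint near a start, and among them several leukocyte genes had the midpoint almost on it. It lay at -10 bp for Spn, which encodes the sialomucin CD43, at 12 bp for the tetraspanin gene Cd37, at -22 bp for Ikzf1, the gene of the Ikaros factor, and at -25 bp for Selplg, which encodes the P-selectin ligand. The same held for H2-Eb1 (-8 bp), Ltb (-7 bp), which encodes lymphotoxin beta, Prss8 (-6 bp), which encodes the protease prostasin, and Krt19 (13 bp), a keratin of simple epithelia. Further windows of Cd37 and Krt19 lay at -296 bp and 971 bp.

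**Figure D2:**
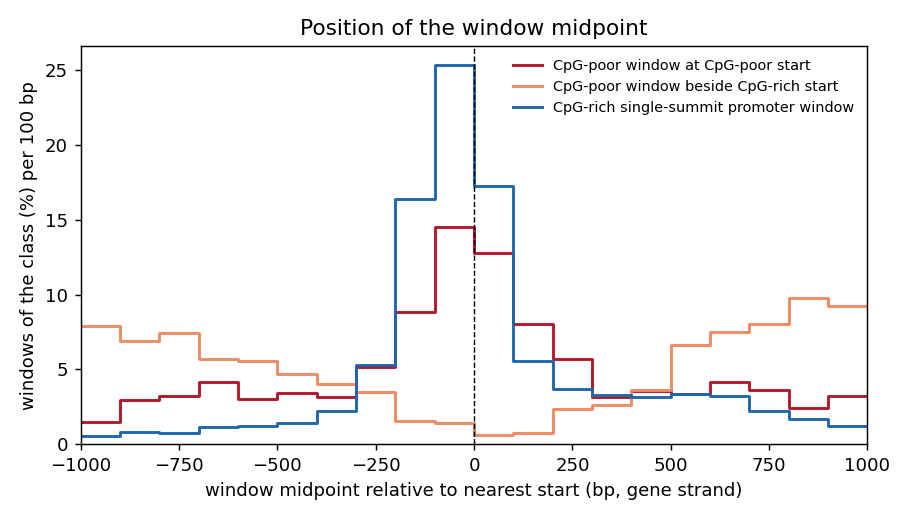
Position of the window midpoint relative to the nearest transcript start (x axis, bp on the gene strand, bins of 100 bp) as a share of each class (y axis, %). Red is windows at CpG-poor starts, orange windows beside CpG-rich starts and blue CpG-rich single-summit windows. Red and blue peak at the start and orange rises toward both ends, with 74.8% of windows more than 500 bp away.

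The midpoint lay in an intron of a protein-coding transcript in 918 windows (52.3%, 49.9 to 54.7), against 25.7% (24.7 to 26.7) of CpG-rich windows. It lay outside genes in 30.5% (28.4 to 32.8), in an untranslated exon in 11.1% (9.68 to 12.7) and in a coding exon in 6.04% (4.97 to 7.26). In 456 windows at CpG-poor starts (46.2%, 43.1 to 49.4) the nearest start was the outermost one of its gene, against 71.2% (70.2 to 72.2) of CpG-rich windows. Starts inside genes were thus frequent among them. Ikzf1 and Pkp3 had windows at such inner starts, in introns of longer transcripts, whereas Cd79a, Gzmm and Tyrobp had windows before their outermost starts. The tally rests on annotated starts, and 95.0% of the windows had a nearest start of a transcript not marked as incomplete at its 5′ end.

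Neighbouring windows were common. Within 10 kb the windows had a mean of 2.19 other windows (median 2, maximum 12), against 1.52 around CpG-rich windows and 1.38 around distal windows. In the set beside CpG-rich starts the nearest other window was a median of 824 bp away, and in 439 of 769 (57.1%, 53.5 to 60.6) another window covered the start. At CpG-poor starts these values were 2949 bp and 118 of 986 (12.0%, 10.0 to 14.2), and 274 windows (27.8%, 25.0 to 30.7) had no other window within 10 kb. Such isolation was more frequent among CpG-rich windows (32.5%, 31.5 to 33.6) and distal windows (44.2%, 43.6 to 44.8). Among the 274 were windows of Cd28, Zap70, Il6, Gbp4 and Rtp4. Cd151, which encodes a tetraspanin, had 10 neighbours and Plaur, the urokinase receptor gene, had 9.

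A total of 1536 of 22208 protein-coding genes (6.92%) had at least 1 of the windows, and 10352 (46.6%) had a window of any kind within 1 kb of a start. Of the latter, 14.8% (14.2 to 15.5) therefore had a single-summit CpG-poor window. Most genes had 1 such window (1338), 173 had 2, 18 had 3, 6 had 4 and Ablim1, which encodes an actin-binding LIM protein, had 5. The windows of Ablim1 lay at 4 different starts, at distances of 985, -537, -965, 338 and 92 bp. Among the 6 genes with 4 windows, Pdlim2 encodes a PDZ and LIM domain protein, Rgs3 a regulator of G protein signalling, and Tiam1 an exchange factor for Rac. All 4 windows of Tiam1 were nearest to a single start, at 792, 592, 77 and -851 bp, and those at 792 and 592 bp overlapped each other. Shisa5, which also had 4 windows, encodes a membrane protein and had 10 other windows within 10 kb of each. A CpG-rich window was also present at 816 of the 1536 genes (53.1%, 50.6 to 55.6). This was so for 300 of 849 genes with a window at a CpG-poor start (35.3%, 32.1 to 38.7) and for 544 of 728 with a window beside a CpG-rich start (74.7%, 71.4 to 77.8).

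Seen from the promoters of all genes, a listed window was much rarer at CpG-poor than at CpG-rich starts. Only calls with the lowest q-values were listed, 27.2% to 44.4% of the call numbers spanned on each chromosome. Starts without a window, here and below, may thus have weaker calls that were left out, and are not shown to be closed. Among outermost starts without a start of the opposite strand within 1 kb, 723 of 8382 CpG-poor ones (8.63%, 8.03 to 9.25) had a window of any kind within 1 kb, against 7150 of 11491 CpG-rich ones (62.2%, 61.3 to 63.1). Single-summit windows gave 7.54% and 49.6%. Without olfactory and vomeronasal receptor genes, which have few CpG-rich starts, the share at CpG-poor starts was 712 of 6963 (10.2%, 9.52 to 11.0). Of 1113 olfactory receptor genes 11 had a single-summit CpG-poor window (0.988%). Of 321 vomeronasal receptor genes none did, which allows a share of up to 0.935%.

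Lists of lineage genes differed in how many members had a single-summit CpG-poor window and in whether other promoter windows were present. Of 32 pan-leukocyte genes 14 had one (43.8%, against 6.92% of all genes), 13 of them at a CpG-poor start, and only 3 others had a promoter window of another kind. The T cell list had 7 of 30 (23.3%), the myeloid list 8 of 31 (25.8%), the B cell list 5 of 29 (17.2%) and the natural killer and cytotoxic list 3 of 18 (16.7%), and every one of these lay at a CpG-poor start. T cell windows included those of Cd28 (0 bp), Cd5 (71 bp), the kinase gene Zap70 (78 bp) and Lck (86 bp). B cell windows included those of Cd79a (-47 bp), a chain of the B cell receptor, the adaptor gene Blnk (-83 bp), the coactivator gene Pou2af1 (210 bp) and Faim3 (-686 bp). Myeloid windows included those of Sfpi1 (86 bp), which encodes PU.1 itself, the signalling adaptor gene Tyrobp (-90 bp), the oxidase subunit gene Ncf4 (92 bp) and the scavenger receptor gene Cd68 (-106 bp). Cytotoxic genes were represented by Gzmm (-52 bp), a granzyme, and the receptor genes Klrg1 (178 bp) and Klrd1 (387 bp).

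Epithelial junction and regulator genes had many promoter windows, most of them not of the CpG-poor single-summit kind. Of 30 epithelial junction and surface genes 22 had a promoter window of any kind (73.3%, against 46.6% of all genes), and 5 had a single-summit CpG-poor window (16.7%, against 6.92% of all genes). Among those with any window this was 22.7%, against 14.8% of all genes, 82.4% of the pan-leukocyte list and 87.5% of the T cell list. These 3 lists differed in their outermost one-strand starts, with 21, 4 and 7 CpG-rich and 7, 27 and 22 CpG-poor ones, respectively. Of the CpG-poor ones 42.9%, 44.4% and 27.3% had a window of any kind. How far the contrast follows from CpG content was not tested. The epithelial junction windows nearest to a start were those of Pkp3 (-34 bp) and Cldn4 (-55 bp), a claudin of tight junctions. The laminin gene Lama3 (-223 bp) and the junction gene Cgn (432 bp) followed, the last beside a CpG-rich start. Of 22 epithelial regulators 17 had a promoter window and 4 a single-summit CpG-poor one (18.2% of the list and 23.5% of those with any window), of which only that of Prss8 was at a CpG-poor start. The windows of Ovol2 (-398 bp), Spint1 (-594 bp) and Prom2 (987 bp) lay beside starts with ratios of 0.781, 0.912 and 0.628. Keratins had 4 of 17 genes (23.5%, and 57.1% of those with any window), all at CpG-poor starts, namely Krt19 (13 bp), Krt16 (-281 bp), Krt80 (-677 bp) and Krt17 (-694 bp). Proteasome genes were at the other end, with a promoter window at 30 of 31 genes but a single-summit CpG-poor one at 2, Psmd8 (-666 bp) and Psmc3 (-926 bp), both beside CpG-rich starts.

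**Figure D3:**
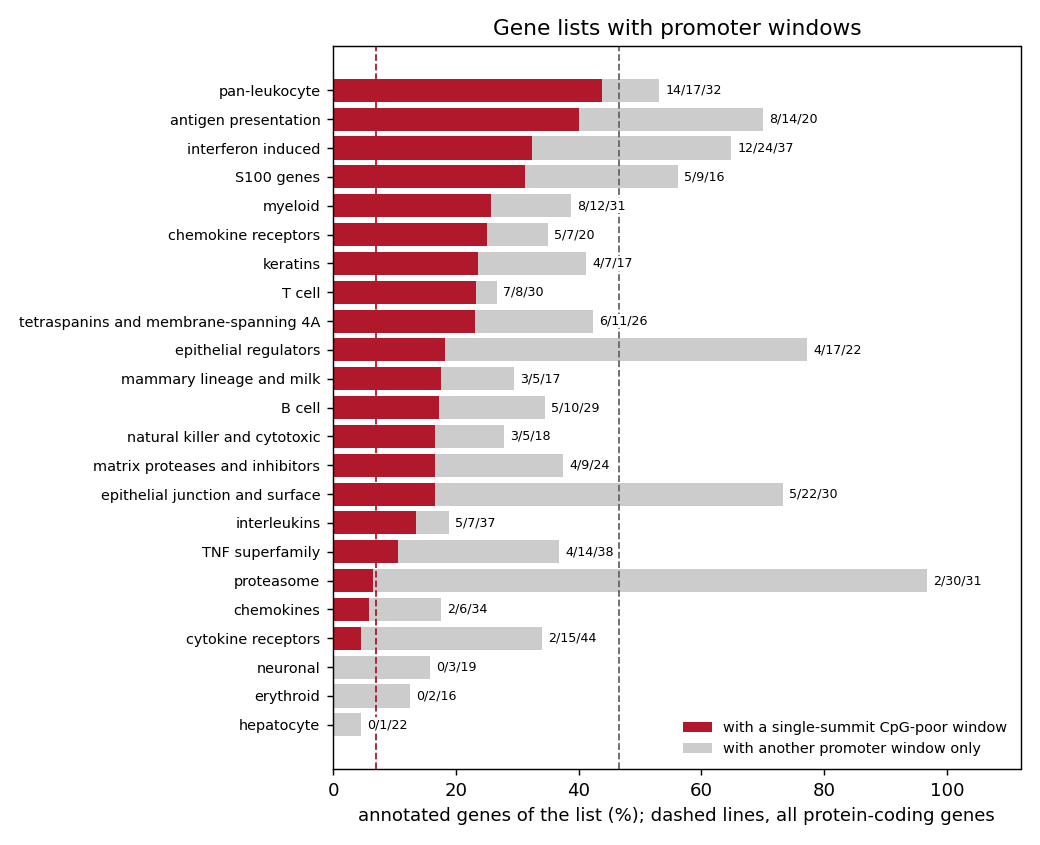
Share of the annotated genes of each list (x axis, %) with a single-summit CpG-poor promoter window (red) or only another promoter window (grey). Numbers give genes with such a window, with any promoter window and annotated, and dashed lines mark 6.92% and 46.6% of all protein-coding genes. Red fills most of the bar in the pan-leukocyte (14 of 17) and T cell (7 of 8) lists and little of it in the epithelial junction (5 of 22) and proteasome (2 of 30) lists. Outermost one-strand starts of these 4 lists were CpG-poor at 27, 22, 7 and 1 genes and CpG-rich at 4, 7, 21 and 25, respectively.

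The lists that follow ranged from 4.55% to 40%, against 6.92% of all genes. Of 37 interferon-induced genes 12 had a single-summit CpG-poor window (32.4%), among them the guanylate-binding protein gene Gbp4 (-26 bp), whose window held 1 CpG, Rtp4 (41 bp), Ifi35 (76 bp) and the nucleic acid sensor gene Zbp1 (123 bp). Of 20 antigen presentation genes 8 did (40%), including the class II genes H2-Eb1 (-8 bp) and H2-Aa (-106 bp), the class I gene H2-Q4 (-159 bp) and the peptide transporter gene Tap2 (247 bp). Of 16 S100 genes, which encode small calcium-binding proteins, 5 did (31.2%), with S100a6 at 13 bp, S100a4 at 92 bp, S100a3 at 242 bp and S100a7a at -316 bp. Chemokine receptors had 5 of 20 (25%), including Ccr6 (-66 bp) and Ccr9 (130 bp). Chemokines themselves had 2 of 34 (5.88%), Ccl20 (81 bp) and Cx3cl1 (-783 bp), a share near that of all genes. Interleukins had 5 of 37 (13.5%), with Il23a at 7 bp, Csf3 at 116 bp, Il6 at 197 bp and Il24 at 646 bp. Cytokine receptors had 2 of 44 (4.55%), Il1r1 (-210 bp) and Il3ra (293 bp), and the TNF superfamily 4 of 38 (10.5%), Ltb (-7 bp), Tnfrsf14 (-33 bp), Tnfsf10 (134 bp) and Tnfsf8 (348 bp). Matrix proteases and inhibitors had 4 of 24 (16.7%), with the serpin gene Serpinb5 at 14 bp, Adam8 at 110 bp, the plasminogen activator gene Plat at -152 bp and Plaur at 744 bp. Mammary genes had 3 of 17 (17.6%), Esr1 (9 bp), Btn1a1 (-185 bp) and Mfge8 (-621 bp). Tetraspanins and Ms4a genes had 6 of 26 (23.1%), with Tspan13 at 7 bp, Cd37 at 12 bp, Cd151 at -76 bp and Ms4a4c at 92 bp.

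None of 22 hepatocyte, 16 erythroid and 19 neuronal genes had such a window. This allows shares of up to 13.6%, 18.8% and 15.8%, which include the 6.92% of all genes, and any promoter window was present at 1, 2 and 3 of them. The genes of both sorting markers were not among the 1536. Epcam had 2 windows near its start, both from peak calls with several summits and with ratios of 0.820 and 1.081. Ptprc, which encodes CD45, had CpG-poor starts (0.298 and 0.295) but no listed window within 1 kb. This does not show a closed promoter, since only calls with the lowest q-values were listed. On chromosome 1, where Ptprc lies, 30.6% of the call numbers spanned were listed. The study itself reported open chromatin at the Cd45 locus in the aggregated splenocytes.

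The share of CpG-poor starts with a window allowed the lists to be compared among promoters of like CpG content. Of 27 pan-leukocyte genes with a CpG-poor outermost start 12 had a window of any kind (44.4%, 25.5 to 64.7), against 8.63% of all CpG-poor starts. Interferon-induced genes had 13 of 26 (50%, 29.9 to 70.1), antigen presentation genes 7 of 13 (53.8%, 25.1 to 80.8), T cell genes 6 of 22 (27.3%, 10.7 to 50.2) and epithelial junction genes 3 of 7 (42.9%, 9.90 to 81.6). Keratins had 4 of 13 (30.8%, 9.09 to 61.4) and matrix proteases and inhibitors 5 of 16 (31.2%, 11.0 to 58.7). S100 genes had 4 of 10 (40%, 12.2 to 73.8) and myeloid genes 6 of 26 (23.1%, 8.97 to 43.6). These 9 intervals lay above 8.63%, and those of the other 14 of 23 lists included it. Among the latter were B cell genes with 5 of 23 (21.7%, 7.46 to 43.7), interleukins with 6 of 33 (18.2%, 6.98 to 35.5), and chemokines and cytokine receptors with 2 of 26 each (7.69%, 0.946 to 25.1). Against the 10.2% without olfactory and vomeronasal receptors 6 intervals lay above, and those of epithelial junction genes, keratins and myeloid genes included it. The 9 intervals overlapped one another, so the order of the lists was not resolved.

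Words without a CpG differed between the 1755 windows and other regions. Words were sought on both strands anywhere in the 500 bp, and words that contain CpG are not compared because the rule removes CpG. The ETS word CAGGAAG was present in 30.0% (27.9 to 32.2) of the windows, against 17.5% (16.6 to 18.4) of CpG-rich windows, 25.1% (24.5 to 25.6) of distal windows and 23.1% (22.8 to 23.5) of all 50000. It was most frequent at CpG-poor starts (35.2%, 32.2 to 38.3), and beside CpG-rich starts it was present in 23.4% (20.5 to 26.6). CpG-poor promoters without any window, read as the 500 bp centred on the outermost start, had it in 23.8% (22.8 to 24.7), and those with a window, read in the same way, in 32.9% (29.5 to 36.5). The AP-1 word TGANTCA took an intermediate place, in 23.2% (21.2 to 25.2) of the windows, 7.66% (7.06 to 8.28) of CpG-rich windows, 31.6% (31.0 to 32.1) of distal windows and 24.8% (24.5 to 25.2) of all windows. CpG-poor promoters had it in 18.3% (15.5 to 21.3) with a window and in 14.5% (13.7 to 15.3) without one.

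The PU.1 word GAGGAAGT, which shares the letters AGGAAG with the ETS word, was present in 6.80% (5.30 to 8.55) of windows at CpG-poor starts, 3.51% (2.33 to 5.07) of those beside CpG-rich starts and 4.63% (4.45 to 4.82) of all windows. CpG-poor promoters without a window had it in 5.94% (5.42 to 6.49), within the interval at CpG-poor starts. The RUNX word TGTGGTT was present in 10.8% (9.36 to 12.3) of the 1755 windows, above CpG-rich windows (5.51%, 5.00 to 6.05) and below distal windows (14.2%, 13.8 to 14.7), and close to all windows (11.3%). In CpG-poor promoters without a window it was present in 11.9% (11.2 to 12.6), and the interval overlapped that of the 1755 windows. The NF-kB word GGGNNNTTCC was present in 12.2% (10.2 to 14.4) of windows at CpG-poor starts, above distal windows (7.95%, 7.63 to 8.29) and CpG-poor promoters without a window (8.89%, 8.26 to 9.55), with 8.82% in all windows. CpG-rich windows had it in 9.72% (9.06 to 10.4), with overlapping intervals, and the 1755 windows together in 11.0% (9.57 to 12.6). The E-box CAGCTG, bound by E2A-type factors, was present in 35.1% (32.1 to 38.2) of windows at CpG-poor starts, against 30.2% (29.7 to 30.8) of distal and 28.1% of all windows. Its share in CpG-poor promoters without a window was 28.5% (27.5 to 29.6). The IRF word GAAANNGAAA was present in 7.12% (5.96 to 8.43) of the 1755 windows, in 5.74% of all windows and in 7.60% (7.02 to 8.22) of CpG-poor promoters without a window. The GATA word AGATAA was less frequent in the 1755 windows (16.5%, 14.8 to 18.3) than in CpG-poor promoters without a window (26.1%, 25.1 to 27.1) and as frequent as in all windows (16.5%). The NFI palindrome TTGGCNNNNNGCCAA was found in 0 of 1755 windows, which allows a share of up to 0.171% and so includes the 0.0880% of all windows. Its single arm TTGGCA was present in 24.8% (22.8 to 26.9), against 24.4% of all windows.

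**Figure D4:**
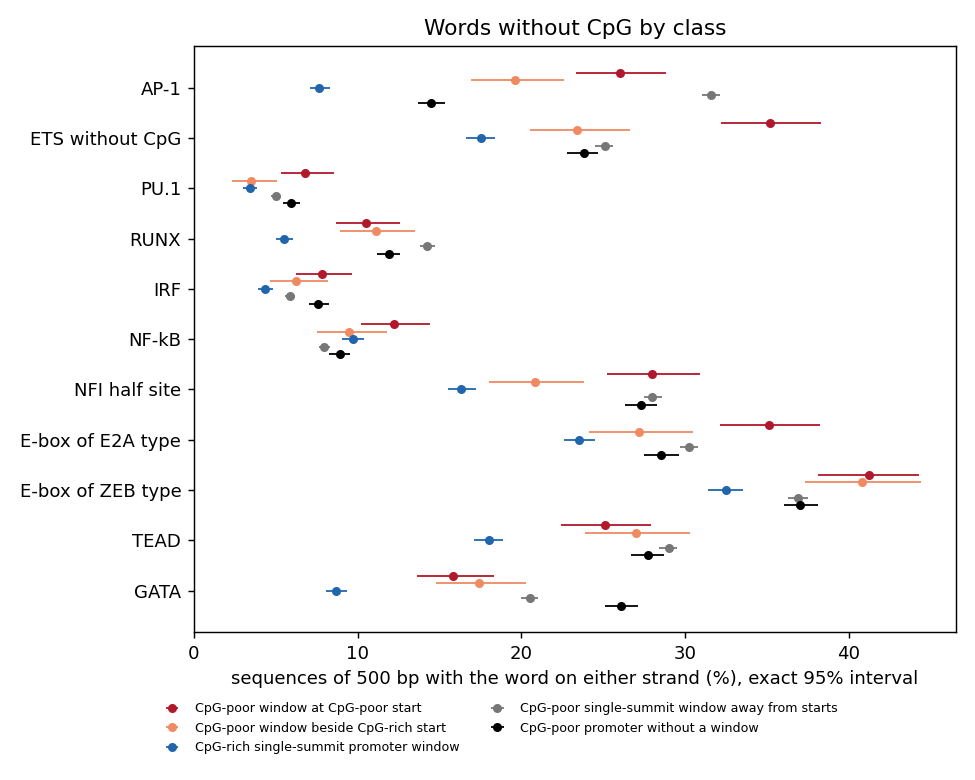
Share of 500 bp sequences with each word on either strand (x axis, %) for windows at CpG-poor starts (red), windows beside CpG-rich starts (orange), CpG-rich single-summit promoter windows (blue), distal CpG-poor single-summit windows (grey) and CpG-poor promoters without a window (black). Points are shares and bars exact 95% intervals. In the row of the ETS word without CpG red is highest, at 35.2%, and in the AP-1 row grey is highest, at 31.6%.

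GC content differed between these classes, with medians of 52.0% at CpG-poor starts, 50.4% beside CpG-rich starts and 48.4% in distal windows, so the shares were repeated in sequences with 50% to 55% GC. The ETS word was then present in 36.0% (31.1 to 41.0) of windows at CpG-poor starts and in 30.1% (29.0 to 31.1) of distal windows, and the intervals met at 31.1. CpG-poor promoters had it in 35.8% (29.8 to 42.2) with a window and 28.1% (25.9 to 30.4) without, with overlapping intervals. The AP-1 word was present in 28.3% (23.8 to 33.1) of windows at CpG-poor starts, against 10.4% (8.29 to 12.8) of CpG-rich windows, and in 19.8% (14.9 to 25.3) and 10.1% (8.70 to 11.7) of CpG-poor promoters with and without a window. The NF-kB word was above distal windows, at 13.5% (10.2 to 17.4) against 9.42% (8.76 to 10.1), but not distinguishable from CpG-poor promoters without a window (12.1%, 10.6 to 13.8). Its interval also overlapped that of CpG-rich windows (8.77%, 6.84 to 11.0). The RUNX word was present in 10.5% (8.23 to 13.2) of all windows of the rule, 8.37% (6.47 to 10.6) of CpG-rich and 12.9% (12.2 to 13.7) of distal windows, and both differences fell within overlapping intervals. CpG-poor promoters without a window had it in 9.15% (7.79 to 10.6), which overlapped the windows of the rule as well. The same was true of the GATA word, with 15.2% (12.5 to 18.3) in windows of the rule, 17.1% (15.3 to 19.0) in CpG-poor promoters without a window and 19.8% (14.9 to 25.3) in those with one. The PU.1 word was present in 5.56% (3.47 to 8.37) of windows at CpG-poor starts and 5.44% (4.93 to 5.99) of distal windows. It was present in 6.71% (5.54 to 8.03) of CpG-poor promoters without a window. The E2A-type E-box changed its order in this band, with 32.0% (27.3 to 37.0) at CpG-poor starts and 37.5% (36.4 to 38.7) in distal windows, and the intervals overlapped. In CpG-poor promoters without a window its share was 38.9% (36.5 to 41.3), also above CpG-poor starts with overlapping intervals.

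Within promoters the ETS word was most frequent at the start. At CpG-poor starts with a window of the rule it occurred 6.29 times per 100 starts in the 50 bp before the start and 5.98 times in the 50 bp after it, against 2.94 to 4.77 times in the other 50 bp bins within 250 bp. For both words this set counts a start once per window, so that of Tiam1 enters 4 times. Counted once per start, CpG-poor promoters with any window had the ETS word 6.92 and 6.22 times, against 2.77 to 4.98 in the other bins. In CpG-poor promoters without a window these values were 3.06 and 3.15, against 1.85 to 3.49 in the other bins. The AP-1 word occurred 3.75 to 3.96 times per 100 starts in the bins from -150 to 0 bp and 1.01 to 1.83 times in those beyond 50 bp downstream. In CpG-poor promoters without a window it occurred 1.74 to 2.47 and 0.914 to 1.37 times, respectively. Counted once per start, CpG-poor promoters with any window had it 3.60 and 3.87 times in the bins from -100 to 0 bp. From -150 to -100 bp they had it only 1.94 times, against 2.21 without a window. Beyond 50 bp downstream they had it 1.11 to 1.52 times. Pkp3, Il23a and Lck, printed above, show the words at these places. Around the window midpoint, 21.4% (17.8 to 25.3) of AP-1 matches in the 1755 windows lay within 50 bp, where an even spread gives 20.2%, and 24.7% (23.8 to 25.5) did so in distal windows. In steps of 50 bp away from the midpoint, AP-1 matches of the 1755 windows numbered 105, 122, 110, 78 and 76. For the ETS word the share within 50 bp was 21.7% (18.5 to 25.1). Of the other words without CpG, the NFI arm TTGGCA (25.1%, 21.5 to 29.1) and the E-box CAGCTG (23.6%, 20.5 to 26.9) lay above the even share of 20.4%, and the TATA word (15.8%, 12.3 to 19.9) below it. Distal windows leaned the same way, with 22.8% (21.9 to 23.7), 25.5% (24.7 to 26.4) and 14.4% (13.6 to 15.2), respectively. In CpG-rich windows the TATA word was likewise low (14.9%, 12.3 to 17.8). These positions were thus not particular to the 1755 windows.

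**Figure D5:**
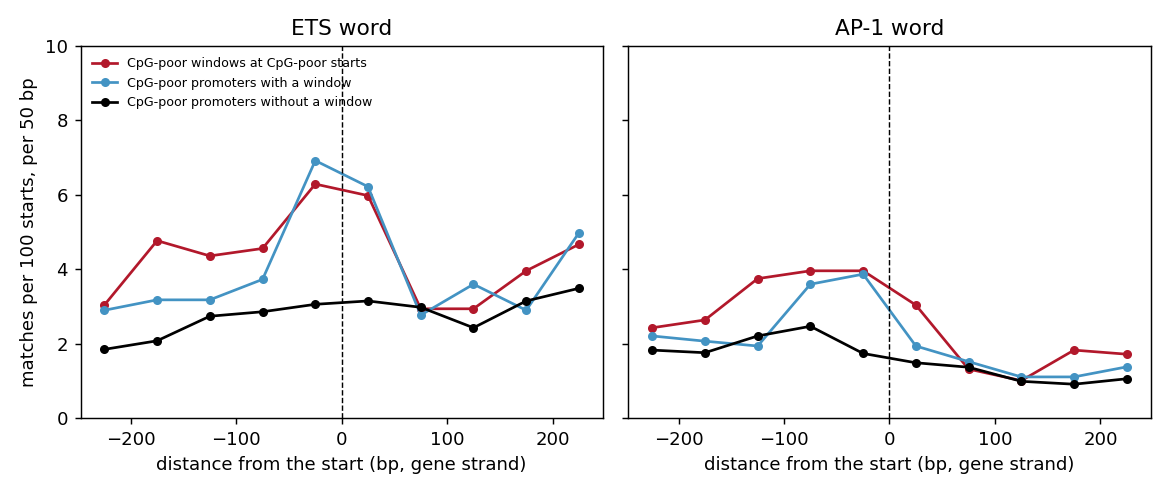
Matches of the ETS word (left) and the AP-1 word (right) per 100 starts (y axis) in 50 bp bins by distance from the start (x axis, bp on the gene strand). Red is windows at CpG-poor starts (986), with a start counted once for each of its windows. Blue is CpG-poor outermost starts with any window (723) and black those without a window (7659), each start counted once. Red and blue rise at the start, to 6.29 in red for the ETS word, while black stays between 1.85 and 3.49 for that word.

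The TATA word TATAAA, sought on the gene strand 40 to 20 bases before the nearest start, was rare. It was present for 25 of the 1755 windows (1.42%, 0.924 to 2.1), of which 20 lay at CpG-poor starts (2.03%, 1.24 to 3.12), and for 0.737% (0.556 to 0.959) of CpG-rich windows. CpG-poor promoters without a window had it more often, in 379 of 7659 (4.95%, 4.47 to 5.46), than those with one, in 16 of 723 (2.21%, 1.27 to 3.57). Their median GC content was 46.8% and 52.8%, and at 50% to 55% GC the shares were 5.12% (4.11 to 6.30) and 2.47% (0.911 to 5.30), with overlapping intervals. The CCAAT word between 150 and 30 bases before the start showed no such difference, with 21.0% (19.1 to 23.0) for the 1755 windows, 20.9% (18.0 to 24.0) for CpG-poor promoters with a window and 21.0% (20.1 to 21.9) for those without. Genes of the lists with a TATA word at its place were Krt16 and Krt17 (both at -31), S100a4 (-32) and H2-Q4 (-28). The windows of Krt16 and Krt17, centred at -281 and -694 bp, did not themselves hold the word. Other genes with a TATA word at its place were 1600029D21Rik (-30), Gm6905 (-37), Lrrc14b (-25), Smgc (-38) and Neurl3 (-39). So were Tph2 (-30), which encodes a hydroxylase of serotonin synthesis, and Id1 (-29), which encodes an inhibitor of helix-loop-helix factors. The 100 bases before the start of 2 of them are printed to show the TATA word at its usual place, with capitals for the TATA and CCAAT words.
1600029D21Rik, chr9:50302530-50302629, plus strand: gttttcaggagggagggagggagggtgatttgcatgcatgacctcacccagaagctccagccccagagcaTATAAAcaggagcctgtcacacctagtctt
Id1, chr2:152561887-152561986, plus strand: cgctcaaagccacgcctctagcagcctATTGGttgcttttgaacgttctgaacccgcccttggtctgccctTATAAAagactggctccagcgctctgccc
The window of 1600029D21Rik was centred at -13 bp from a CpG-poor start of ratio 0.289, and that of Id1 at -128 bp from a start of ratio 0.577.

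The windows were unevenly spread over chromosomes. They made up 13.2% of the single-summit promoter windows on chromosome 11 and 25.1% on chromosome 7. Peak calls are numbered in order, and 27.2% to 31.3% of the numbers spanned on chromosomes 1 and 10 to 13 were listed, against 38.2% to 44.4% on the others. On chromosomes 1 and 10 to 13 the share was 328 of 2062 (15.9%, 14.4 to 17.6), against 1427 of 7151 (20.0%, 19.0 to 20.9) on the other chromosomes. The part of these missing calls in the chromosome difference was not tested.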

How the data were processed

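Pi-ATAC was performed on 4T1 cells and splenocytes, and groups were taken from sample titles, 96 cells each. As the methods of the study describe, the authors clipped adapters, aligned reads to mm9 with Bowtie2 (2.1.0), removed duplicates with Picard (1.79) and mitochondrial reads, aggregated cells of a condition, called summits with MACS2 (version not given in the sources used here) and kept 500 bp windows around summits with the lowest q-values. The deposited values were genome positions (start and end) and a name per window, without a score, count or depth. Names were taken to mean calls on all cells together, a reading left unsettled by the methods. Whether a call had several summits was read from a letter at the end of its name.

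Window sequence came from the mm9 assembly (NCBIM37), and starts from protein-coding transcripts of GENCODE vM1 on 20 chromosomes. The CpG ratio was the CpG count times length divided by the product of the C and G counts. Distances were signed on the gene strand, and the nearest start was used. A total of 32 words were searched on both strands. The 23 gene lists held 602 genes, of which 589 were annotated. The windows, words and lists were chosen with earlier results of these data known. The division by CpG ratio of the start, the GC band and the list shares among CpG-poor starts were added after values were seen. Lists are described by counts, without a test, since 1 list without replicates allows none. Intervals are exact binomial (Clopper-Pearson) at 95%, from SciPy 1.17.1 (Python 3.11.15, NumPy 2.4.6), and figures were drawn with matplotlib 3.10.9. Functions were tested on simulated sequence.

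Genes named were, for each list, up to 4 with the midpoint nearest to a start, the 5 windows of lowest ratio above 0, the 3 on either side of the limit, up to 6 genes with the most windows, up to 8 with a TATA word at its place and all such list genes, up to 3 list genes per word with the AP-1, PU.1, IRF, RUNX or full NFI word within 150 bp of the midpoint, and Epcam and Ptprc. Results for 1 such gene are not given here. Alternatives changed the CpG limit, the distance, the formula, the set of starts, the chromosomes and the inclusion of multi-summit windows.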

Additional observations from a re-analysis of the deposited data

How the results depend on the processing

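Of the alternative values computed, 65 moved by less than the counting interval (or by less than 1.5 times for counts) and 31 moved further. The squared CpG formula, the restriction to starts of complete transcripts and leaving out chromosomes 1 and 10 to 13 moved none of the values computed. With a CpG limit of 0.3, the AP-1 word was present in 25.7% of windows instead of 23.2%, epithelial junction genes with a window fell to 2, and 5.92% instead of 7.54% of CpG-poor promoters had a single-summit window. A limit of 0.5 gave 27.7% for the ETS word and 9.02% of promoters. Within 500 bp of a start there were 894 windows, with the ETS word in 34.1% and 53.1% upstream, and 5.45% of promoters. Within 250 bp there were 563, with TATA in 2.13%, AP-1 in 25.6%, ETS in 36.8%, 52.9% upstream, 3 epithelial junction genes and 3.89% of promoters. Outermost starts alone gave 1162 windows and 3 epithelial junction genes, and their promoter share is the main one. Adding multi-summit windows gave AP-1 in 25.3%, 51.9% upstream, a median distance of -24 bp and 8.63% of promoters. Windows at CpG-poor starts alone, chosen after seeing the data, numbered 986, with AP-1 in 26.0%, ETS in 35.2% and 3 epithelial junction genes. Windows of 50% to 55% GC, also chosen after seeing the data, numbered 617, with AP-1 in 25.3%, ETS in 32.4%, 5 pan-leukocyte genes and 1 epithelial junction gene. Why these values moved was not tested, beyond the smaller or larger number of windows admitted. No paired analysis was possible because the windows form 1 pooled list without samples, and no replicate could be left out for the same reason.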
